A study of Homo sapiens with 10 samples.

Results

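LIN28A and LIN28B, the oncofetal genes HMGA2, IGF2BP1, IGF2BP2 and IGF2BP3, and the RNA-tailing and decay genes TUT4, TUT7 and DIS3L2 were followed in beating heart muscle cells made from the established human embryonic stem cell line H1. These 9 genes were taken by symbol from the 78932 gene identifiers of the count table. All 9 were found and all 9 had enough counts to be tested. The control group was cells transfected with a control GapmeR, an antisense oligonucleotide that directs RNase H to the RNA it pairs with, and the knockdown group was cells transfected with a GapmeR against the RNA named CLIPPER. Both groups came from the same line, carried no other labelled change, received 50 nM of oligonucleotide 9 days after differentiation began and were harvested after 48 hours. Each group had 5 libraries of total RNA. No purification or sort of the cells is stated. Nothing in the labels says that they came from separate cultures, so p-values measure the spread between these samples, which may be technical.

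LIN28A and LIN28B are paralogous RNA-binding proteins with a cold-shock domain and zinc knuckles that hold let-7 microRNA precursors back from maturation. When LIN28A is bound, the terminal uridylyltransferases TUT4 and TUT7 add a uridine tail to the precursor, and the exonuclease DIS3L2 degrades the tailed RNA. Mature let-7 in turn represses messenger RNAs of fetal growth genes, among them LIN28B itself, HMGA2, an AT-hook chromatin protein and not an RNA-binding protein, and the IGF2BP family, which bind and stabilise messenger RNAs such as IGF2. These genes are active in embryonic tissues and are largely silenced as tissues mature.

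The let-7 sequences are shown because they define the seed whose complement was searched in the members. They are RefSeq sequences (GRCh38.p14), 5′ to 3′, with the seed, bases 2 to 8, in capitals.
hsa-let-7a-5p: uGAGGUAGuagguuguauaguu
hsa-let-7c-5p: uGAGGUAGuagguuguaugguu
hsa-let-7g-5p: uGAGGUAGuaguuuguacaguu
hsa-let-7i-5p: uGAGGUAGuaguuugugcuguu
All 8 let-7 names searched in that table share this seed. In the precursor of let-7g the GGAG element that the zinc knuckles of LIN28 bind is in capitals.
let-7g hairpin, chr3:52268278-52268361, minus strand: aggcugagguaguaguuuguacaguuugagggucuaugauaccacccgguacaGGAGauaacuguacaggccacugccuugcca

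The complement of the seed, CTACCTC, was searched on the transcript strand in the 3′ UTR of the canonical transcript of every coding gene. It was present in 6 of the 9 members, LIN28A, LIN28B, HMGA2, IGF2BP1, IGF2BP2 and IGF2BP3, and absent from these windows of DIS3L2, TUT4 and TUT7. LIN28B, HMGA2 and IGF2BP1 each held 4 matches, and LIN28A, IGF2BP2 and IGF2BP3 each held 1. Of all 20046 such UTRs, 9.52% held a match. Among UTRs within 25% of the same length the share was 23.1% for LIN28B, 14.9% for HMGA2 and 30.9% for IGF2BP1, whose own UTRs were 4549, 2999 and 6701 bases long. It was 16.0%, 12.9% and 12.2% for LIN28A, IGF2BP2 and IGF2BP3. For DIS3L2, TUT4 and TUT7, whose UTRs were only 562, 660 and 944 bases long, it was 3.54%, 4.27% and 6.01%. A match is a description of the letters and not evidence of binding. The match nearest to the stop codon of each gene is given below as the RNA-sense strand on GRCh38, with the 7 matching bases in capitals.
LIN28A, chr1:26427342-26427371, plus strand: tggagtgcacagcctattgaaCTACCTCat
LIN28B, chr6:105078806-105078835, plus strand: tcctttacccggttgcaaagtCTACCTCat
HMGA2, chr12:65963293-65963321, plus strand: ggggcgccaacgttcgatttCTACCTCag
IGF2BP1, chr17:49051055-49051084, plus strand: caatgctgtgtgcgaagtaaaCTACCTCaa
IGF2BP2, chr3:185644219-185644248, minus strand: gagaaaaacacacagaagaagCTACCTCag
IGF2BP3, chr7:23311794-23311823, minus strand: taaacgtgcatttttactcaaCTACCTCag

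The members split in the knockdown. LIN28A, LIN28B and IGF2BP1 were higher, HMGA2, IGF2BP2, IGF2BP3, DIS3L2 and TUT7 were lower, and TUT4 did not pass the test. With an adjusted p below 0.05 in edgeR's quasi-likelihood test, 8 of the 9 members were called, 3 higher and 5 lower. Over all 21033 genes tested, 79.7% were called, 40.1% higher and 39.6% lower, so the share of members called was near the background. With upper-quartile scaling 9566 genes were called higher and 7277 lower, against 8441 and 8332 here, and the members again split into 3 and 5. The median log2 fold change was -0.98 over the members and 0.0056 over all genes tested. In the 8 called members the groups did not overlap, which was also so for 67.5% of all genes tested. The libraries held between 32879710 and 45052044 counts. Levels are given as CPM, counts per 1e6 of the TMM-scaled library total, and the median worth of 1 count was 0.0262 CPM. Cardiomyocyte markers were abundant in both groups, with the summed level of 10 of them ranging from 26988 to 37215 CPM in controls and from 10483 to 17036 CPM after knockdown, and 8 of the 10 fell. Markers of other cells that such cultures can hold fell as well. All 4 smooth muscle markers were lower, with a sum of 1146 to 2388 CPM in controls and 474 to 871 CPM after knockdown. Of the tested endothelial markers 3 of 4 were lower (30.4 to 51.8 and 8.76 to 17.6 CPM), as were 3 of 3 epicardial markers (5.48 to 6.95 and 2.27 to 4.19 CPM). Of 8 stromal markers 4 were lower and 2 higher (1261 to 1381 and 951 to 1118 CPM). The part of these cells in the members' changes was not tested. In bulk RNA, fewer cells of a type and less RNA per cell cannot be told apart.

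**Figure D1:**
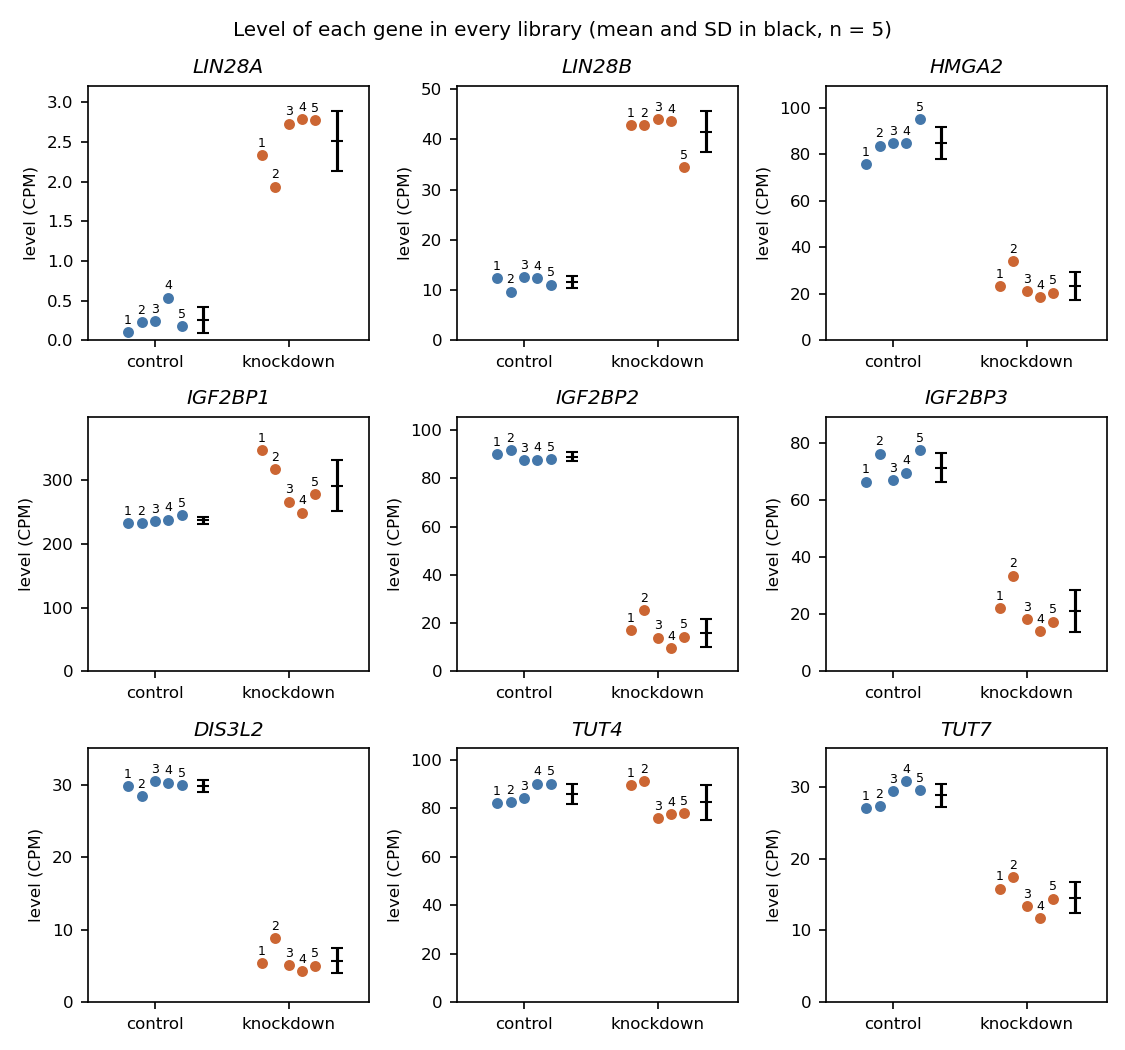
Each panel plots the level of 1 gene in CPM (linear axis from 0) in the 5 control and 5 knockdown libraries, numbered by replicate, with the group mean and SD in black. LIN28A and LIN28B lay higher in every knockdown library, HMGA2, IGF2BP2, IGF2BP3, DIS3L2 and TUT7 lay lower in every one, and the groups overlapped for TUT4, whose direction flips under upper-quartile scaling.

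LIN28B (ENSG00000187772, chromosome 6, 104936616 to 105083332, plus strand) was the more abundant LIN28 gene in both groups. Its level in control replicates 1 to 5 was 12.4, 9.67, 12.6, 12.4 and 11.1 CPM. In knockdown replicates 1 to 5 it was 42.8, 42.8, 44, 43.7 and 34.5 CPM. All knockdown libraries lay above all controls, and knockdown replicate 5 was the lowest of its group. LIN28B rose 3.57-fold (log2 fold change 1.84 ± 0.105 SE, adjusted p = 4.4e-08, edgeR's quasi-likelihood test). These levels rest on 2225 counts over the controls and 8110 over the knockdown libraries. Both tested long non-coding genes that overlap its span also rose. LIN28B-AS1, on the opposite strand, went from 0.261 to 1.21 CPM, and ENSG00000290011, on the same strand, from 0.121 to 3.41 CPM. The strand setting of the counting is not given in the sources used here, so reads of overlapping genes could not be assigned with certainty.

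LIN28A (ENSG00000131914, chromosome 1, 26410817 to 26429728, plus strand), the paralogue used as a reprogramming factor, was near the detection limit in control cells. The control libraries had 4, 10, 8, 20 and 7 counts, which is 0.102, 0.232, 0.239, 0.539 and 0.178 CPM. The knockdown libraries had 108, 91, 98, 92 and 88 counts, which is 2.33, 1.93, 2.73, 2.79 and 2.77 CPM. The lowest knockdown library was above the highest control, replicate 4. LIN28A rose 9.67-fold (log2 fold change 3.27 ± 0.319 SE, adjusted p = 1.5e-06, edgeR's quasi-likelihood test). The log2 fold change was 3.70 without control replicate 4. Even so, LIN28B made up 96.8% ± 1.83 of the summed LIN28 level per kilobase of exon in controls and 91.6% ± 1.63 after knockdown (SD, n = 5). This share was formed after the values were seen.

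LIN28A is also a marker of pluripotent cells, so the other markers of that state are given beside it. Of 8 listed pluripotency markers 4 could be tested, of which 2 rose, 1 fell and 1 did not pass. DPPA4 went from 0.211 ± 0.11 to 1.65 ± 0.415 CPM and ZFP42 from 0.140 ± 0.0814 to 0.805 ± 0.259 CPM (SD, n = 5), both chosen for mention after their values were seen. DNMT3B, a DNA methyltransferase chosen likewise, fell from 7.86 ± 0.864 to 4.01 ± 0.272 CPM. POU5F1, which defines the pluripotent state, had 19 counts over all controls and 16 over all knockdown libraries, and NANOG had 4 and 2. The summed level of the 8 markers was 7.64 to 10.4 CPM in controls and 6.57 to 8 CPM after knockdown. DNMT3B was the largest part of this sum in both groups, so the sum does not show the rises of DPPA4 and ZFP42. The defining markers POU5F1 and NANOG were near 0 in both groups. LIN28 genes are also expressed in early neural and endodermal cells. Of 6 neural markers 2 could be tested, and TUBB3 rose, from 27.1 ± 6.17 to 60.8 ± 8.83 CPM, while DCX fell, from 3.48 ± 0.394 to 2.31 ± 0.437 CPM (SD, n = 5). The defining markers PAX6 and SOX1 were at or below 0.0719 CPM on average in each group. Of 8 endoderm markers 2 could be tested. APOA1 rose, from 6.03 ± 0.658 to 14.9 ± 3.65 CPM, and SOX17, at 0.372 ± 0.0571 and 0.346 ± 0.141 CPM (SD, n = 5), did not pass. Among those with too few counts to test, ALB had 46 counts over all controls and 4 over all knockdown libraries, and FOXA1 had 34 and 0. The endoderm sum is therefore mostly APOA1, and the neural sum is mostly TUBB3. Summed levels were 23.8 to 38.5 and 52.2 to 74.5 CPM for the neural list and 5.83 to 7.38 and 10.9 to 19.8 CPM for the endoderm list, in control and knockdown libraries. Their part in the LIN28 result was not tested.

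HMGA2 (ENSG00000149948, chromosome 12, 65824460 to 65966291, plus strand) moved the opposite way from the LIN28 genes. Its control levels were 75.8, 83.7, 84.6, 84.6 and 95 CPM. Its knockdown levels were 23.4, 33.9, 21.1, 18.5 and 20.5 CPM, with replicate 2 the highest and replicate 4 the lowest. HMGA2 fell 3.6-fold (log2 fold change -1.85 ± 0.151 SE, adjusted p = 4.0e-07, edgeR's quasi-likelihood test). Its antisense gene HMGA2-AS1 averaged 0.329 CPM in controls and 0.373 CPM after knockdown and did not pass. The related AT-hook gene HMGA1, named after its values were seen, rose 3.97-fold, from 79.1 ± 3.63 to 314 ± 88.6 CPM (SD, n = 5).

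The IGF2BP paralogues, which share a domain plan of RNA recognition motifs and KH domains, did not move together. IGF2BP1 (ENSG00000159217, chromosome 17, 48997385 to 49056145, plus strand) was at 232, 232, 235, 237 and 244 CPM in control libraries. It was at 346, 316, 265, 248 and 277 CPM in knockdown libraries, so that replicates 1 and 2 were the highest and replicate 4 lay just above the highest control. IGF2BP1 rose 1.23-fold (log2 fold change 0.30 ± 0.102 SE, adjusted p = 0.016, edgeR's quasi-likelihood test). The call was lost without control replicate 1 (adjusted p = 0.052) or control replicate 2 (adjusted p = 0.053) in edgeR's quasi-likelihood test, and also with no filter on low counts (adjusted p = 0.077, edgeR). Over all alternatives the adjusted p was at most 0.077. The log2 fold change ranged from 0.15, without knockdown replicates 1 and 2 together, to 0.50, with upper-quartile scaling.

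IGF2BP2 (ENSG00000073792, chromosome 3, 185643130 to 185825042, minus strand), the paralogue most retained in adult tissues, was at 90.0, 91.7, 87.5, 87.7 and 88.0 CPM in control libraries. In the knockdown it was at 17.1, 25.3, 14, 9.72 and 14.4 CPM. Every knockdown library was far below the narrow control range. IGF2BP2 fell 5.51-fold (log2 fold change -2.46 ± 0.201 SE, adjusted p = 4.1e-07, edgeR's quasi-likelihood test). IGF2BP3 (ENSG00000136231, chromosome 7, 23310209 to 23470491, minus strand), the form best known from fetal tissue and tumours, was at 66.6, 76.4, 67.2, 69.7 and 77.6 CPM in controls and at 22.2, 33.5, 18.3, 14.2 and 17.5 CPM after knockdown. It fell 3.37-fold (log2 fold change -1.75 ± 0.193 SE, adjusted p = 4.0e-06, edgeR's quasi-likelihood test), without overlap between the groups. MALSU1, a coding gene on the opposite strand whose span overlaps that of IGF2BP3, rose by 0.60 on the log2 scale, from 17.9 to 27.2 CPM.

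Per kilobase of exon, IGF2BP1 made up 49.5% ± 0.877 of the summed level of the 3 paralogues in control libraries and 84.9% ± 3.4 in knockdown libraries (SD, n = 5). The range was 48.0% to 50.2% in controls and 79.1% to 88.1% in the knockdown, so the groups did not overlap. The summed level went from 49.6 ± 0.987 to 35.7 ± 5.65 CPM per kilobase. This share was formed after the values were seen and is given as a description. With the length of the longest transcript in place of all exons it was 41.8% in control and 79.5% in knockdown libraries.

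**Figure D2:**
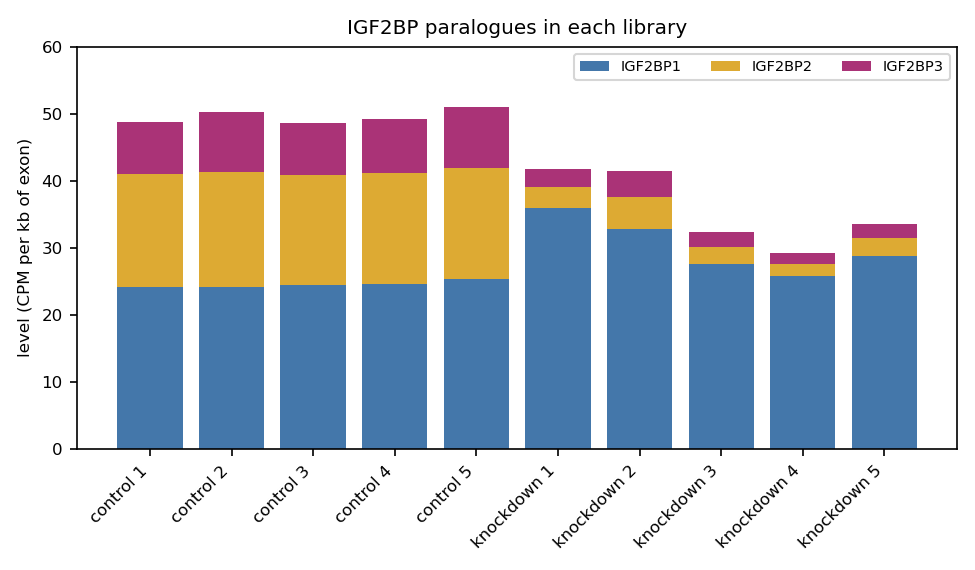
Bars show the level of IGF2BP1, IGF2BP2 and IGF2BP3 in CPM per kilobase of exon, stacked, in each of the 10 libraries. The IGF2BP2 and IGF2BP3 segments shrink in every knockdown library, and IGF2BP1 makes up 79.1% to 88.1% of the bar there against 48.0% to 50.2% in controls.

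The tailing enzymes differed from each other. TUT4 (ENSG00000134744, chromosome 1, 52408282 to 52553487, minus strand) was at 82.2, 82.4, 84.1, 90.1 and 90.1 CPM in control libraries. It was at 89.4, 91.1, 75.9, 77.6 and 77.8 CPM in knockdown libraries, where replicates 1 and 2 lay within the control range or just above it and the other 3 lay below it. The log2 fold change was -0.06 ± 0.0811 (SE), with a 95% interval from -0.23 to 0.12 (adjusted p = 0.52, edgeR's quasi-likelihood test). It was 0.14 with upper-quartile scaling. Without knockdown replicates 1 and 2 together it was -0.16 and passed (adjusted p = 0.022, edgeR's quasi-likelihood test). PRPF38A, a splicing factor gene on the opposite strand with an overlapping span, rose by 0.89 on the log2 scale, from 26.3 to 48.6 CPM.

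TUT7 (ENSG00000083223, chromosome 9, 86287733 to 86354454, minus strand), which acts redundantly with TUT4, was at 27.0, 27.3, 29.4, 30.8 and 29.5 CPM in controls and at 15.8, 17.4, 13.4, 11.7 and 14.4 CPM after knockdown. TUT7 fell 1.98-fold (log2 fold change -0.98 ± 0.107 SE, adjusted p = 3.7e-06, edgeR's quasi-likelihood test). No library of the knockdown reached the control range. TUT4 made up 55.2% ± 0.69 of the summed level of both enzymes per kilobase of exon in controls and 70.2% ± 1.86 after knockdown (SD, n = 5). This share, too, was formed after the values were seen.

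DIS3L2 (ENSG00000144535, chromosome 2, 231961245 to 232344350, plus strand), the exonuclease that removes uridylated let-7 precursors, was at 29.8, 28.5, 30.5, 30.3 and 30 CPM in control libraries. In the knockdown it was at 5.42, 8.82, 5.16, 4.33 and 5.07 CPM, and replicate 2 stood apart from the other 4. DIS3L2 fell 5.15-fold (log2 fold change -2.36 ± 0.167 SE, adjusted p = 1.5e-07, edgeR's quasi-likelihood test). Its counts were 1023 to 1225 per control library and 143 to 415 per knockdown library.

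The 5 members that fell shared an order among the knockdown libraries. HMGA2, IGF2BP2, IGF2BP3, DIS3L2 and TUT7 were each highest in knockdown replicate 2 and lowest in replicate 4. TUT4, which was not called, was also highest in replicate 2, and IGF2BP1, which rose, was also lowest in replicate 4. The share of all genes with this order was not counted. LIN28A was lowest in replicate 2 (1.93 CPM) and highest in replicate 4 (2.79 CPM). LIN28B departed from this order, since its replicates 1 to 4 lay within 42.8 and 44 CPM. The TMM factors of knockdown replicates 1 and 2 were 1.16 and 1.12 and those of the other 3 were 0.899 to 0.967, and the part of this difference in the order was not tested. Chi-square per degree of freedom over the genes tested grows with differences between 2 libraries beyond counting noise. It was 62.7 to 238 between knockdown replicates 1 or 2 and the other 3. It was 53.6 between replicates 1 and 2, and 4.45 to 13.1 among the other 3. Without knockdown replicates 1 and 2 together, 3 members were called higher and 6 lower, the additional one being TUT4.

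Per kilobase of exon, the order of the members in control libraries was IGF2BP1 (24.5 ± 0.515 CPM per kilobase), IGF2BP2 (16.7 ± 0.338), IGF2BP3 (8.38 ± 0.607), HMGA2 (5.62 ± 0.454), TUT4 (5.30 ± 0.248), TUT7 (4.29 ± 0.236), DIS3L2 (2.63 ± 0.0711), LIN28B (1.96 ± 0.213) and LIN28A (0.0649 ± 0.0418; SD, n = 5). HMGA2 and TUT4 did not differ beyond their spread. In knockdown libraries IGF2BP1 (30.2 ± 4.13) was followed by LIN28B (6.99 ± 0.672), TUT4 (5.09 ± 0.449), IGF2BP2 (3.02 ± 1.09), IGF2BP3 (2.48 ± 0.877), TUT7 (2.17 ± 0.325), HMGA2 (1.56 ± 0.404), LIN28A (0.632 ± 0.0939) and DIS3L2 (0.508 ± 0.155; SD, n = 5). LIN28B thus moved from next to last to second in the order, ahead of HMGA2, IGF2BP2 and IGF2BP3. The ranges over libraries overlapped between neighbours from TUT4 to HMGA2, and between LIN28A and DIS3L2. The order depends on the length used. TUT4, for example, has 16199 bases of annotated exon and a longest transcript of 5858 bases. By the longest transcript TUT4, at 14.1 CPM per kilobase, came ahead of LIN28B in the knockdown. There IGF2BP3 (4.95) also came ahead of IGF2BP2 (3.76), HMGA2 (2.90) ahead of TUT7 (2.54) and DIS3L2 (1.23) ahead of LIN28A (0.632). In controls TUT4 (14.6) came ahead of HMGA2 (10.5), and DIS3L2 (6.38) ahead of TUT7 (5.03).

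Fold changes in this comparison varied with gene span, the distance from the start to the end of a gene with its introns. Coding genes spanning 100 to 300 kb had a median log2 fold change of -1.30 (2434 genes), of which 82.7% fell and 6.78% rose. LIN28B, with a span of 147 kb, rose by 1.84 on the log2 scale in that class, and TUT4, with 145 kb, had a log2 fold change of -0.06 (0.14 with upper-quartile scaling). HMGA2, IGF2BP3 and IGF2BP2, in the same class, had values of -1.85, -1.75 and -2.46. The class of 30 to 100 kb, which holds IGF2BP1 (0.30) and TUT7 (-0.98), had a median of -0.48, and the class of 300 to 1000 kb, which holds DIS3L2 (-2.36), had a median of -2.06. LIN28A, at 18.9 kb, belongs to the class of 10 to 30 kb, whose median was 0.27. The part of gene span in the members' changes, and in those of the related genes below, was not tested.

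**Figure D3:**
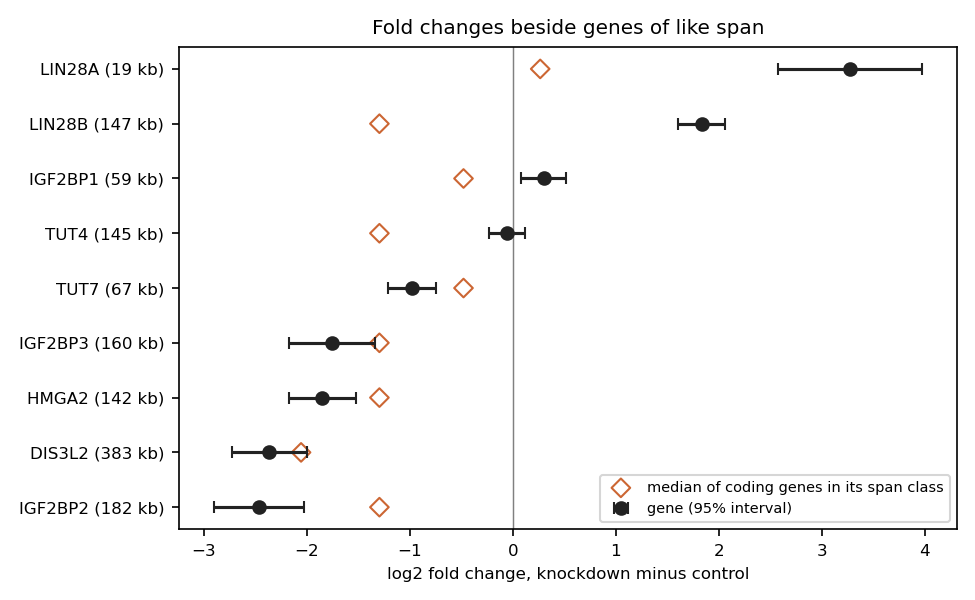
Black points show the log2 fold change (knockdown minus control) of each member with its 95% interval, and open diamonds the median of all tested coding genes in the same class of gene span, given in kb beside the name. LIN28B and TUT4 lie to the right of the diamond of their class at -1.30, whereas DIS3L2 lies close to its own at -2.06. The direction of TUT4 flips under upper-quartile scaling.

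Related genes were counted in 7 lists, which together held 111 tested genes. Of these 45 rose, 54 fell and 12 did not pass, so that 89.2% were called against 79.7% of all genes tested. Nearly all the listed genes had mean levels above 1 CPM, and the 79.7% was not matched for level. In microRNA processing, 8 of 16 genes rose and 7 fell. SRRT, which encodes ARS2, a cap-complex partner in primary microRNA processing, rose 4.75-fold, from 89.0 ± 2.7 to 423 ± 116 CPM (SD, n = 5). Among the Argonaute genes AGO1 rose 2.62-fold, while AGO2, which encodes the slicing Argonaute, fell 4.12-fold and AGO3 fell 4.44-fold. In RNA 3′ tailing and decay, 8 of 17 genes rose, including the U6 uridylyltransferase gene TUT1 (2.53-fold) and the mitochondrial poly(A) polymerase gene MTPAP (1.68-fold). In that list 7 fell, including the deadenylase gene PARN (3.19-fold) and the cytoplasmic exonuclease gene XRN1 (3.3-fold). The medians of these lists were 0.13 and 0.11. The named genes that rose, SRRT, AGO1, TUT1 and MTPAP, spanned 13.6, 60.7, 16.6 and 64.6 kb. Those that fell, AGO2, AGO3, PARN and XRN1, spanned 115, 142, 197 and 141 kb.

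Mature let-7 was not measured, but transcripts of genes that host let-7 precursors were. Of 7 tested, 3 rose and 4 fell. MIR100HG, which hosts let-7a-2, rose 3.23-fold, from 33.5 ± 2.77 to 108 ± 11.2 CPM, and MIRLET7A1HG rose 3.14-fold, from 5.33 ± 0.567 to 16.7 ± 2.37 CPM (SD, n = 5). MIR99AHG, which hosts let-7c, fell 3.36-fold, from 36.6 ± 7.54 to 10.8 ± 3.13 CPM, and HUWE1, a ubiquitin ligase gene that hosts let-7f-2, fell 2.43-fold. The median of the list was -0.41, and it was -0.0087 with DESeq2, with 3 again higher and 4 lower. DESeq2 was run without the filter on low counts. MIRLET7BHG, with 24 counts in controls and 32 in the knockdown and not tested here, therefore entered that median. With edgeR and no filter beyond 1 count the median was -0.050.

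Of 31 other let-7 target genes, all tested, 12 rose, 15 fell and 4 did not pass, with a median of -0.02. With upper-quartile scaling 15 rose and 14 fell, and the median was 0.18. CCNJ, which encodes cyclin J, rose 3.83-fold and the insulin receptor substrate gene IRS2 3.34-fold, while the transcription factor gene ARID3A fell 4.84-fold and IGF1R, the IGF1 receptor gene, fell 4.4-fold. TRIM71, the LIN41 ubiquitin ligase gene that is a classical let-7 target, chosen after its values were seen, rose 1.65-fold, from 12.2 ± 0.993 to 20.0 ± 5.89 CPM (SD, n = 5). The seed match was present in the 3′ UTR of 22 of the 31. Of those 22, 9 rose and 10 fell, and their median log2 fold change was 0.12. Of the 9 without it 3 rose and 5 fell, and their median was -0.43. Over all tested coding genes the median log2 fold change was -0.20 for 13144 genes without a match, -0.44 for 1433 with 1, -0.43 for 165 with 2 and -0.36 for 35 with 3 or more. Median gene span rose over these classes from 33 to 43.4, 52.0 and 58.8 kb. Median 3′ UTR length rose as well, from 1170 to 2904, 4977 and 6013 bases. The part of span and UTR length in the medians was not tested.

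Of 13 client and partner genes of the IGF2BP proteins, 4 rose and 6 fell. IGF2, the client that gave the family its name, chosen after its values were seen, rose 2.18-fold, from 535 ± 25.9 to 1168 ± 249 CPM (SD, n = 5). Partners in the IGF2BP1 complex split, with HNRNPU 3.24-fold and SYNCRIP 1.92-fold higher and the helicase gene DHX9 1.87-fold lower. BTRC, a ubiquitin ligase gene whose messenger RNA IGF2BP1 binds, fell 6.78-fold. The median of the list was -0.09, and with upper-quartile scaling it was 0.12, with 5 genes higher and 5 lower. The genes that write, erase or read m6A, an RNA methylation mark that IGF2BP proteins also read, had 7 of 13 higher and 6 lower. The writer genes RBM15 and METTL3 rose 3.22-fold and 2.2-fold, and the eraser genes FTO and ALKBH5 fell 8.09-fold and 2.22-fold. RBM15, METTL3, FTO and ALKBH5 spanned 8.18, 13.2, 457 and 26.9 kb. The median log2 fold changes of coding genes in their span classes were 0.71, 0.27, -2.06 and 0.27. The part of span in these changes was not tested. Of 16 other developmental RNA-binding protein genes 4 rose, including CARHSP1 (1.93-fold), a cold-shock domain protein, and FXR2 (1.82-fold), and 9 fell, including CELF1 (3.73-fold) and MSI2 (3.07-fold).

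**Figure D4:**
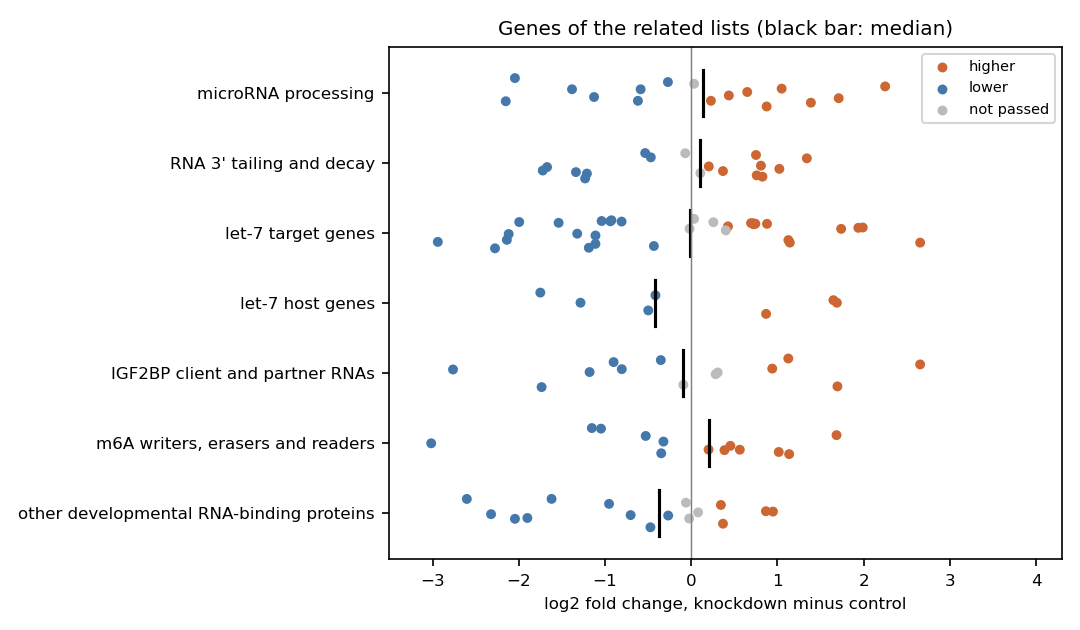
Each point is the log2 fold change (knockdown minus control) of 1 tested gene in the 7 related lists, coloured by whether it was higher, lower or did not pass at an adjusted p below 0.05, with the list median as a black bar. Every list holds genes on both sides of 0, and the list medians lie between -0.41 and 0.20.

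The genes whose levels followed LIN28A and LIN28B most closely were found by Pearson's correlation of log2 CPM over the 10 libraries, among 15978 named genes with a mean of at least 1 CPM. For LIN28A they were the potassium channel gene KCNA1 (r = 0.991), the kinase gene WNK4 (0.990) and the G protein subunit gene GNG8 (0.988). For LIN28B they were the spindle checkpoint gene BUB3 (0.998), CTDP1-DT (0.996) and ANKRD10-IT1 (0.995). All 10 libraries fall into the same 2 groups for every gene, so these values mostly describe the difference between the groups. BUB3 rose by 0.54 on the log2 scale and KCNA1 by 3.43.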

How the data were processed

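The file deposited by the authors gives unnormalised whole-number counts for 78932 gene identifiers in 10 libraries. Per the labels' protocols, libraries came from a stranded total RNA kit. Trim Galore 0.65, STAR 2.7.0, HTSeq and GRCh38 are named in the submitters' processing notes. The version and strand option of HTSeq were not found in them. Names, positions and lengths came by identifier from GENCODE on GRCh38 (61481 matched, the other 17451 held 0.25% to 0.408% of a library's counts).

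Genes were filtered with filterByExpr, normalised by TMM and tested with edgeR 4.0.16 in R 4.3.3 (quasi-likelihood F test, robust dispersion, Benjamini-Hochberg adjustment over 21033 genes, threshold 0.05). The SE was taken from the log2 fold change and F. All pairs of libraries within a group differed by more than counting noise. Upper-quartile scaling moved the median of all genes by 0.20. The table was not analysed for CLIPPER itself.

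The members and lists were chosen with earlier results of these data known. The text names all members, up to 2 rising and 2 falling genes of each list with the smallest p, and the 3 genes most like LIN28A and LIN28B. Genes said to be chosen after their values were seen stand outside this rule, as do genes that overlap members and the named cell type markers. Alternatives were other scalings, DESeq2 1.42.0, limma-voom (limma 3.58.1), other filters, no robust dispersion, the replicate number as a block, each library left out, and knockdown replicates 1 and 2 left out together.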

Additional observations from a re-analysis of the deposited data

Results flagged for a closer look

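Among the 58 tested genes named in the text, in both groups (116 sets of 5 libraries), 7 libraries stood apart from the other 4 of their group by a gap above Dixon's 95% critical value of 0.71. Chance flags about 1 in 20 such sets. For the members these were LIN28B at 34.5 CPM in knockdown replicate 5, with the next library at 42.8 CPM, and DIS3L2 at 8.82 CPM in knockdown replicate 2, with the next at 5.42 CPM. Both lay on the knockdown side of all controls.

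The let-7 target IGF1R was at 68.0 CPM in knockdown replicate 2 (next 42.4 CPM). The let-7 host MIRLET7A1HG was at 6.32 CPM in control replicate 3 (next 5.30 CPM). KCNA1 was at 2.73 CPM in knockdown replicate 4 (next 1.89 CPM) and GNG8 at 5.04 CPM in knockdown replicate 2 (next 7.92 CPM). ZFP42 had 0 CPM in control replicate 1 (next 0.152 CPM).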

How the results depend on the processing

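LIN28A, LIN28B, HMGA2, IGF2BP2, IGF2BP3, DIS3L2 and TUT7 kept their direction and their call in all 19 alternatives. Over the libraries left out in turn, log2 fold changes ranged from 3.05 to 3.70 for LIN28A, 1.75 to 1.90 for LIN28B, -2.03 to -1.76 for HMGA2, -2.69 to -2.32 for IGF2BP2, -1.99 to -1.63 for IGF2BP3, -2.58 to -2.27 for DIS3L2 and -1.06 to -0.91 for TUT7. TUT4 turned from -0.06 to 0.14 with upper-quartile factors, by a shift of all genes of 0.20. IGF2BP1 lost its call in 3 alternatives, with log2 fold changes of 0.27 in each. Its value ranged from 0.24 to 0.36 over the libraries left out in turn, and from 0.15 to 0.50 over the other alternatives. The members called were 2 or 3 higher and 5 or 6 lower. For the other 49 tested genes named in the text, 923 of 926 alternative values kept direction and call. The exceptions had not passed: HMGA2-AS1 turned from 0.20 to -0.26 without knockdown replicates 1 and 2, and SOX17 from -0.13 to 0.14 there and to 0.075 with upper-quartile factors. Every count of the related lists stayed within 1.5 times its value, but list medians near 0 changed sign. Over the alternatives they ranged from -0.08 to 0.18 for let-7 targets, -0.21 to 0.12 for IGF2BP clients and -0.02 to 0.30 for 3′ tailing and decay. The median of the let-7 host genes stayed negative but ranged from -0.51, without knockdown replicates 1 and 2, to -0.0087, with DESeq2. The DESeq2 median also took in MIRLET7BHG, which had too few counts to pass the filter. DESeq2 gave 3 members higher and 5 lower. In the fit with the replicate number as a block the counts were also 3 higher and 5 lower (TUT4 -0.06, IGF2BP1 0.29). Deviations from the group mean correlated weakly between same-numbered libraries (-0.135 to 0.198). Such values cannot show whether the numbers pair the samples.

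By the longest transcript, levels in CPM per kilobase in control libraries were 10.5 for HMGA2, 26.9 for IGF2BP1, 20.8 for IGF2BP2, 16.7 for IGF2BP3, 6.38 for DIS3L2, 14.6 for TUT4 and 5.03 for TUT7. In knockdown libraries they were 2.90 for HMGA2, 4.95 for IGF2BP3, 1.23 for DIS3L2, 14.1 for TUT4 and 2.54 for TUT7. The share of IGF2BP1 was then 41.8% and 79.5%, and that of TUT4 74.4% and 84.7%, in control and knockdown libraries, a length chosen for the shares after seeing the data. Control LIN28A rests on 49 counts in all, which limits the precision of its fold change.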
